A study of Mus musculus with 6 samples.

Results

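Of the genes read on these arrays that move water, sodium or chloride in the lung, a subset of 10 is followed here. It holds the water channel genes Aqp1, Aqp3, Aqp4 and Aqp5 and the epithelial sodium channel subunits Scnn1a, Scnn1b and Scnn1g. The others are the chloride channels Cftr and Ano1, and Atp1b1, a subunit of the sodium pump. All 10 were chosen by name, with earlier results of these data known. Counts among them thus describe these genes and give no independent support. Every probe set annotated to one of them alone was taken, which gave 21 of the 45037 probe sets and 10 of 18193 genes. The arrays hold RNA of the left lung lobe of C57/BL6 mouse embryos at E18.5, shortly before birth. There were 3 wild type animals and 3 with a conditional knockout (CKO) of Smad1, which relays bone morphogenetic protein (BMP) signals to the nucleus, in the lung epithelium. Each array held 1 lobe, and each CKO animal was paired with 1 wild type animal. The Cre line, the deleted part of Smad1 and the relation between the animals of a pair are unknown here, since no source used states them. The p-values rest only on the spread between these samples. The test used, limma, draws the spread of each probe set toward that common to all probe sets. No p-value here thus comes from the pairs of a gene alone.

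Before birth the lung is filled with liquid. The epithelium secretes chloride through channels such as Cftr and the calcium-activated Ano1, and sodium and water follow into the lumen. Around birth the direction turns: sodium enters the cell through the epithelial sodium channel, built of the alpha (Scnn1a), beta (Scnn1b) and gamma (Scnn1g) subunits, and is pumped out at the base by the sodium pump, so that liquid is absorbed. Aquaporins are the membrane channels through which water crosses, Aqp5 at the apical face of alveolar type 1 cells, Aqp1 mainly in capillary endothelium, and Aqp3 and Aqp4 in airway cells.

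Differences are log2 CKO minus wild type of log2(intensity + 1), as the mean of 3 pairs with the SD over pairs, and the representative probe set of a gene is the one with the highest mean over the 6 arrays. None of the 10 genes passed the limma test across all probe sets (threshold 0.05 on the Benjamini-Hochberg adjusted p), where 1 probe set was called lower (0.00222% of 45037) and 0 higher (0%). By representative probe set 0 of all 18193 genes were called in either direction (0%). At an unadjusted p under 0.05, 5 of the 10 genes were lower, Aqp5, Scnn1g, Scnn1b, Ano1 and Aqp1, against 9.96% of all genes, and 0 were higher, against 4.96%. The same 5 were lower in all 3 pairs, as were 29.3% of all genes. In 4 of them, Aqp5, Scnn1g, Scnn1b and Ano1, every CKO array lay below every wild type array, which held for 6.05% of all genes. In pairs 1 and 2 alone, 6 of the 10 were lower in both pairs (34.2% of all genes) and the same 6, which now included Aqp3, had no overlap between the groups (22.1% of all genes). The median difference was -0.70 over the 10 genes and -0.09 over all genes, and -0.51 and -0.03 without pair 3. After cyclic loess normalization, which evens out shifts that vary with intensity between arrays, these medians were -0.32 and 0.05. The representative probe sets of the 10 genes, except that of Aqp3, were among the brightest 15012, whose median difference was -0.45. The shares and medians of all genes given here are thus not matched for intensity.

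**Figure D1:**
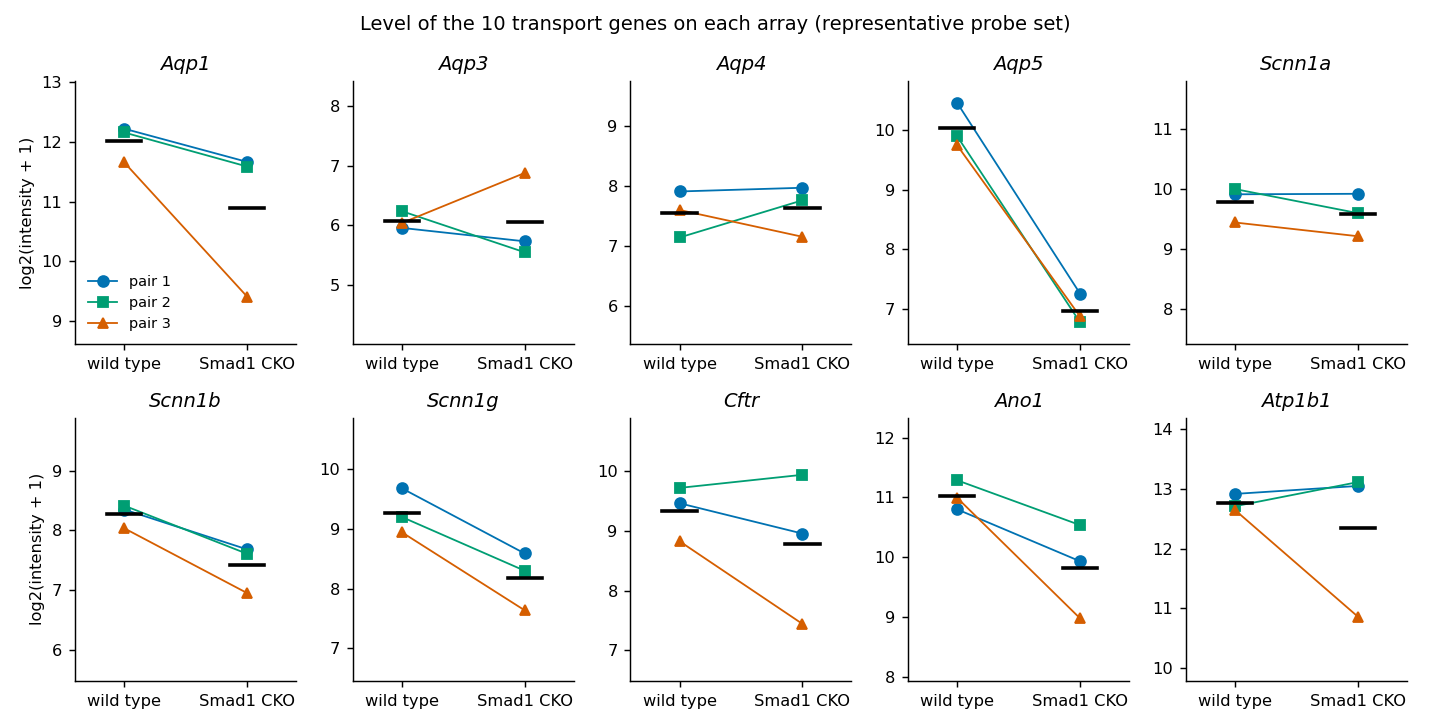
Log2(intensity + 1) of the representative probe set of each of the 10 genes on the 6 arrays, with wild type at the left and Smad1 CKO at the right of each panel, lines joining the animals of a pair and black bars for the mean of 3 arrays. Each panel has its own range. Aqp5, Scnn1b, Scnn1g and Ano1 have every CKO array below every wild type array, while in Aqp1, Cftr and Atp1b1 the array Smad1 CKO 3 lies far below the other CKO arrays.

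The array Smad1 CKO 3 stood apart, so the differences below are also given without pair 3. Its upper quartile of intensity was 170.3, while the other 5 lay between 222.3 and 283.8. Its beta-actin 3' signal of 5820 compared with 18445 to 20900 elsewhere. The beta-actin 3'/5' ratio, a sign of RNA quality, was 1.56 there and 1.21 to 1.39 elsewhere. Among the brightest 15012 probe sets the median difference was -0.30, -0.02 and -0.96 in pairs 1, 2 and 3, and among the dimmest 15013 it was 0.14, 0.02 and 0.28. Pair 1 also differed in sex-linked genes, with Xist at 10.95 (log2) in Smad1 CKO 1 and at 6.07 to 7.70 on the other arrays. Smad1 itself overlapped between the groups, at 9.53 to 10.09 in wild type and 9.05 to 10.62 in CKO lungs. It was higher in the CKO lung in pairs 1 and 2 and lower in pair 3. The lobe also holds cells in which it was not targeted, and the deleted part is unknown here, so these values do not check the labels. The part of these properties in the differences below was not tested.

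Aqp5 differed most among the 10 genes. Its intensity was 1397, 948.1 and 854.1 in wild type lungs 1 to 3 and 152.5, 109.1 and 116.8 in CKO lungs 1 to 3. The lowest wild type value thus exceeded the highest CKO value several times over, and all 6 values lay above the median intensity of their array. The differences were -3.19, -3.11 and -2.86 in pairs 1, 2 and 3, a mean of -3.05 ± 0.17 (SD, 3 pairs), an 8.29-fold lower intensity with a 95% interval of -3.52 to -2.59 on the log2 scale. Across all probe sets it just missed the threshold (limma, adjusted p = 0.0731). It was called without pair 3 (adjusted p = 0.00102), with an intensity trend in the prior (adjusted p = 0.000692) and with the dim probe sets left out (adjusted p = 0.00205), and over all alternatives its adjusted p ran from 0.000692 to 0.781. The highest of these came without pair 1. A fit without 1 pair had 1 residual degree of freedom, so its p-value leaned mostly on the spread of all probe sets. The Aqp5 difference was the 4th lowest of 18193 genes. At least 2-fold lower values in all 3 pairs were found for Aqp5 alone among the 10, and for 0.275% of all genes.

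The Aqp5 difference was -3.15 without pair 3 and -2.64 after cyclic loess normalization, which removes shifts that vary with intensity between arrays. In a whole lobe, fewer cells of a type and less RNA per cell cannot be told apart. Of 14 markers of alveolar type 1 cells, 12 were lower in all 3 pairs (29.3% of all genes were), with a median difference of -0.69 and -0.28 without pair 3, and their summed level was 15.88 to 15.94 (log2) in wild type and 14.13 to 15.63 in CKO lungs. Alveolar type 2 cells make surfactant, and 14 of their 15 measured markers were lower in all 3 pairs (29.3% of all genes), 7 of them by at least 2-fold in all 3 pairs (0.275% of all genes). Their median difference was -1.57 and -1.07 without pair 3, the lowest marker was at -5.17, and their summed level was 16.57 to 16.82 in wild type and 14.15 to 15.88 in CKO lungs. After cyclic loess normalization the median was -0.05 for the type 1 markers, -0.89 for the type 2 markers and 0.05 for all genes. The part of either list in the Aqp5 result was not tested.

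The gene of Aqp5 lies on chromosome 15 at 99591028 to 99594829 (GRCm38.p6, RefSeq). Its promoter window is shown because, among the genes followed here, Aqp5 had the greatest difference between CKO and wild type lungs. The gene targeted in the CKO encodes a Smad protein, and this family binds the short Smad box GTCT. Loss of that protein was not measured. The window runs from 250 bases before to 50 bases after the start site, chr15:99590778-99591077, plus strand, and capitals mark GTCT or its reverse complement AGAC.

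Aqp5: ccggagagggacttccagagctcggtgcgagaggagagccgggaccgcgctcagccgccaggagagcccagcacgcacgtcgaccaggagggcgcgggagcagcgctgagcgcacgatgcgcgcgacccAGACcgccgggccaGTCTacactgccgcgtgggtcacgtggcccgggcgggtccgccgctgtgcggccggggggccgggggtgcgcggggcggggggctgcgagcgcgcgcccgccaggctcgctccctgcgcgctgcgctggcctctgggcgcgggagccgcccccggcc

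The Aqp5 window held GTCT or AGAC at 2 places, at -121 and -107 from the start site, which is also the median number over all promoters. At least 1 such match was found in 88.0% of the 32851 promoter windows of RefSeq genes, so its presence sets Aqp5 apart from few genes. The window had a GC content of 79.7%, against a median of 52.7% over all windows. It held no GGCGCC, the GC-rich box bound by Smads of the BMP branch, which 11.9% of all windows held. A match is a description of the letters and not of binding.

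The other 3 water channel genes did not share the Aqp5 pattern. Aqp1, the water channel of capillaries, had intensities of 4763, 4559 and 3223 in wild type lungs and 3243, 3073 and 680.2 in CKO lungs. The groups overlapped by a narrow margin, since Smad1 CKO 1 lay above wild type 3. Aqp1 was lower in each pair, by -0.55, -0.57 and -2.24, with a mean of -1.12 ± 0.97 (limma, adjusted p = 0.367). Without pair 3 the difference was -0.56 (adjusted p = 0.552), and after cyclic loess normalization -0.51, so the size of the mean depended on that pair. All 12 endothelial markers, among which Aqp1 would be placed by its site in the lung, were lower in all 3 pairs (29.3% of all genes were), with a median of -0.98 and of -0.64 without pair 3, and their summed level was 14.03 to 14.50 in wild type and 12.33 to 13.92 in CKO lungs. After cyclic loess normalization the median of the endothelial markers was -0.46. The part of these markers in the Aqp1 difference was not tested.

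Aqp3, which also carries glycerol, was dim on its 4 probe sets. The representative one read 61.1, 74.4 and 64.8 in wild type lungs and 52.2, 45.8 and 116.5 in CKO lungs. The groups overlapped, and the highest and the lowest of the 6 values were both from CKO lungs. Its difference was -0.03 ± 0.78 (limma, adjusted p = 0.968), with a 95% interval of -0.81 to 0.76, and -0.46 without pair 3. The other 3 probe sets gave -0.41, -0.24 and 0.04. Only 2 of the 6 arrays had the representative probe set above their median intensity.

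Aqp4, a water channel of the basolateral membrane, read 239.6, 140.1 and 193.1 in wild type lungs and 250.1, 216.1 and 141.3 in CKO lungs. On this probe set the groups overlapped. The difference was 0.08 ± 0.53 (limma, adjusted p = 0.863; 95% interval -0.55 to 0.71), and 0.34 without pair 3. A second probe set gave -0.29 ± 0.75. On the third the pairs were at 0.23, 0.20 and 0.71 (mean 0.38 ± 0.29), with every CKO array above every wild type array, as in 4.25% of all genes. The probe sets of Aqp4 thus disagreed. Within the same arrays Aqp5 lay lower relative to Aqp4 by -3.25, -3.73 and -2.41 in the 3 pairs, and relative to Aqp3 by -2.96, -2.42 and -3.70. Relative to Aqp1 the pair values were -2.63, -2.54 and -0.62, the last from the pair in which Aqp1 itself was far lower. Without pair 3 these contrasts were -3.49 (Aqp4), -2.69 (Aqp3) and -2.59 (Aqp1), and after cyclic loess normalization -2.998, -2.51 and -2.13.

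**Figure D2:**
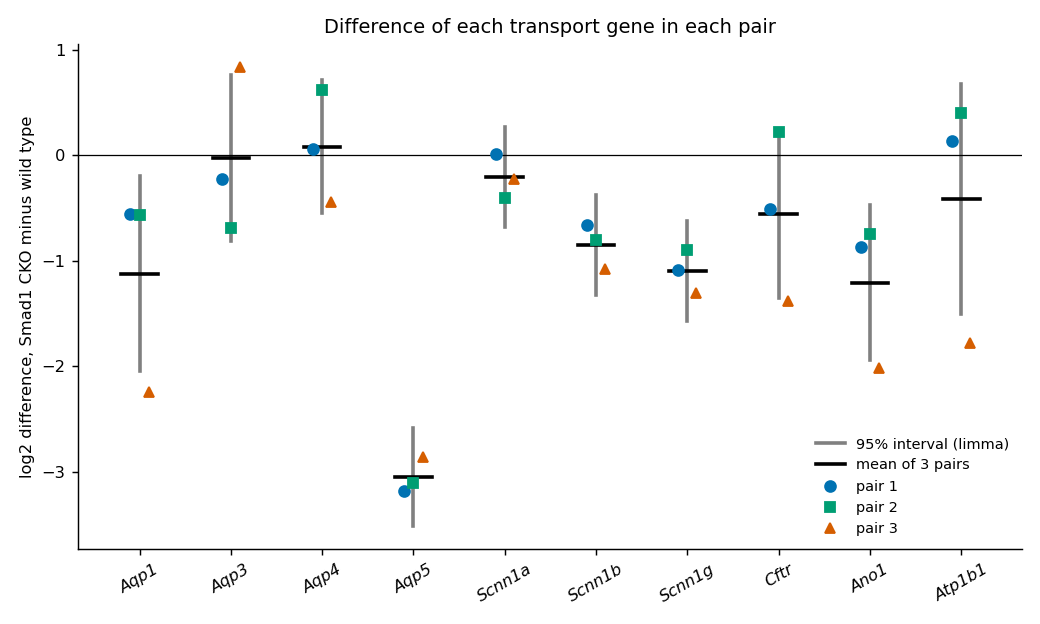
Log2 difference, Smad1 CKO minus wild type, of the 10 genes in each pair (coloured symbols), with the mean of the 3 pairs (black bar) and the limma 95% interval (grey line). Aqp5 lies near -3 in every pair, Scnn1b and Scnn1g near -1, and the pair 3 symbols (triangles) of Aqp1, Cftr, Ano1 and Atp1b1 lie well below those of pairs 1 and 2.

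The 3 subunits of the epithelial sodium channel did not differ alike. Scnn1g, the gamma subunit, had intensities of 817.1, 585.7 and 490.5 in wild type lungs and 383.5, 313.8 and 197.9 in CKO lungs. The groups did not overlap, although wild type 3 came near Smad1 CKO 1. In pairs 1, 2 and 3 the differences were -1.09, -0.90 and -1.30, with a mean of -1.10 ± 0.20, a 2.14-fold lower intensity (limma, adjusted p = 0.367; 95% interval -1.57 to -0.62). Without pair 3 the difference was -0.99 (adjusted p = 0.346), and after cyclic loess normalization -0.67.

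Scnn1b, the beta subunit, had intensities of 325.4, 340.5 and 261.7 in wild type lungs and 204.7, 194.5 and 123.0 in CKO lungs. Again every CKO value lay below every wild type value. Pair by pair it differed by -0.67, -0.80 and -1.08, with a mean of -0.85 ± 0.21, a 1.80-fold lower intensity (limma, adjusted p = 0.367; 95% interval -1.33 to -0.37). Without pair 3 the difference was -0.74 (adjusted p = 0.507), and after cyclic loess normalization -0.53. Both genes kept a negative difference in all 12 alternatives, without being called in any of them.

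Scnn1a, the alpha subunit, on which channel assembly and activity depend, read 963.9, 1025 and 695.0 in wild type lungs and 969.5, 774.9 and 592.7 in CKO lungs. The groups overlapped, with Smad1 CKO 1 level with wild type 1. By pair it differed by 0.01, -0.40 and -0.23, with a mean of -0.21 ± 0.21 (limma, adjusted p = 0.526; 95% interval -0.68 to 0.27), and -0.20 without pair 3. After cyclic loess and quantile normalization the sign turned, to 0.30 and 0.25, so Scnn1a has no settled direction. Within the same arrays Scnn1g was lower relative to Scnn1a by -1.10, -0.50 and -1.08 in the 3 pairs, with a mean of -0.89 ± 0.34. Scnn1b was lower relative to Scnn1a by -0.67, -0.40 and -0.85, with a mean of -0.64 ± 0.23. After cyclic loess normalization these contrasts were -0.97 and -0.83, and without pair 3 they were -0.80 and -0.54. The contrasts between genes are given as values and were not tested.

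Scnn1g and Scnn1b are neighbours on chromosome 7, at 121734420 to 121768482 and 121865038 to 121918728 (GRCm38.p6), 96.6 kb apart with 1 long non-coding RNA gene between them, while Scnn1a lies on chromosome 6 at 125314271 to 125344943. The promoter windows of the neighbouring subunits are shown because these genes differed in the same direction and by similar amounts. They cover chr7:121734229-121734528 and chr7:121864788-121865087, both on the plus strand, with GTCT or AGAC in capitals. The start site of the Scnn1g window lies within the gene, after its first base at 121734420. No window of Scnn1a or Aqp4 is shown.

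Scnn1g: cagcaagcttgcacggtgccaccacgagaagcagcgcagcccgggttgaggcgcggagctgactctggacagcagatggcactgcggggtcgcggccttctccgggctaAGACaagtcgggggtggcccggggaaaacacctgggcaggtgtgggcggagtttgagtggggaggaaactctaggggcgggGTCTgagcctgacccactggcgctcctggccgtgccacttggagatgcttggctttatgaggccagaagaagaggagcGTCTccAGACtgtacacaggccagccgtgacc
Scnn1b: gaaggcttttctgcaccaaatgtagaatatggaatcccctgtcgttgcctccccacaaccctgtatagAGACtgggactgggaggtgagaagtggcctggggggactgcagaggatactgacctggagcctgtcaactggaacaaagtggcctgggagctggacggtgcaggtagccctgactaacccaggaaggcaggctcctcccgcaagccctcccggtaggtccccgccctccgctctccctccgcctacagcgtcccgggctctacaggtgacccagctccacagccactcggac

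The Scnn1g window held 4 matches to GTCT or AGAC, at -141, -60, 19 and 25 from the start site, and 19.9% of all windows held 4 or more. The Scnn1b window held 1, at -182. Neither held GGCGCC (11.9% of all windows), TATAAA (13.6%), the TEAD box GGAATG (14.7%) or the palindromic glucocorticoid response element (0.475%), all searched on both strands. Glucocorticoids are known to raise sodium channel subunits before birth, and no match says only that these letters are not in these 300 bases. Of the 8 genes with a window in the table, 6 held GTCT or AGAC (88.0% of all windows did) and 2, Aqp3 and Cftr, held GGCGCC. The windows of Ano1 and Atp1b1 held neither. The Ano1 window, chr7:144738524-144738823 on the minus strand, belongs to a start site inside the range of the gene, 144588549 to 144752026.

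The chloride channels gave unequal values. Ano1, the calcium-activated channel, read 1783, 2497 and 2037 in wild type lungs and 976.8, 1486 and 503.7 in CKO lungs on its brighter probe set. The groups did not overlap, and Smad1 CKO 3 was again the lowest array. The pair differences were -0.87, -0.75 and -2.01, with a mean of -1.21 ± 0.70 (limma, adjusted p = 0.367; 95% interval -1.94 to -0.48), with -0.81 without pair 3 (adjusted p = 0.460) and -0.65 after cyclic loess normalization. The second probe set read 377.8, 473.0 and 386.8 in wild type and 238.5, 314.4 and 308.6 in CKO lungs. It too had no overlap, with a difference of -0.52 ± 0.18, and there pair 3 gave the smallest difference, at -0.32. That probe set was at -0.62 without pair 3 and at -0.13 after cyclic loess normalization. Ano1 is also expressed in airway smooth muscle, and the 7 markers of smooth muscle and pericytes had a median of -0.47, or -0.04 without pair 3, with a summed level of 13.14 to 13.36 in wild type and 12.00 to 13.29 in CKO lungs. Of these, 2 were lower in all 3 pairs (29.3% of all genes were), and the median of the 7 was 0.08 after cyclic loess normalization. The part of these markers in the Ano1 difference was not tested.

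Cftr, the cyclic AMP-regulated chloride channel mutated in cystic fibrosis, read 704.1, 841.5 and 452.9 in wild type lungs and 495.3, 979.5 and 173.3 in CKO lungs. The highest and the lowest of the 6 values both came from CKO lungs. The pair differences were -0.51, 0.22 and -1.38, with a mean of -0.56 ± 0.80 (limma, adjusted p = 0.384; 95% interval -1.36 to 0.25), and -0.14 without pair 3. With 3 wild type arrays against 2 CKO arrays the sign turned, to 0.11. Its second probe set was dim, below the array median on all 6 arrays, and gave -0.01 ± 0.59. Relative to Ano1 within the same arrays Cftr was higher by 0.36, 0.97 and 0.63 in the 3 pairs, with a mean of 0.65 ± 0.30, 0.66 without pair 3 and 0.56 after cyclic loess normalization.

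The balance between the sodium channel and Cftr, absorption against secretion, did not have the same sign in all 3 pairs for any subunit. Scnn1a relative to Cftr was at 0.51, -0.62 and 1.15 in the 3 pairs, a mean of 0.35 ± 0.90. Scnn1g relative to Cftr was at -0.58, -1.12 and 0.08, and Scnn1b at -0.16, -1.02 and 0.30, so for these subunits pair 3 alone was above 0. Without pair 3 the means were -0.05 (Scnn1a), -0.85 (Scnn1g) and -0.59 (Scnn1b). Over 3 pairs the SD exceeded the size of the mean for all 3 subunits.

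Atp1b1 encodes the beta subunit that brings the sodium pump to the membrane. Its brightest probe set read 7712, 6684 and 6405 in wild type lungs and 8458, 8840 and 1862 in CKO lungs. Smad1 CKO 1 and 2 thus lay above all 3 wild type arrays and Smad1 CKO 3 far below them. The pair differences were 0.13, 0.40 and -1.78, with a mean of -0.42 ± 1.19 (limma, adjusted p = 0.577; 95% interval -1.50 to 0.67), and 0.27 without pair 3 (adjusted p = 0.701). The other 3 bright probe sets gave means of -0.13, 0.00 and -0.06 and were likewise higher in pairs 1 and 2 and lower in pair 3. The fifth probe set was higher in all 3 pairs, at 0.23, 0.24 and 1.38 (mean 0.62 ± 0.66, and 0.24 without pair 3), with every CKO array above every wild type array, as in 4.25% of all genes. The probe sets of Atp1b1 thus disagreed in pair 3, and the sign of the brightest depended on Smad1 CKO 3.

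**Figure D3:**
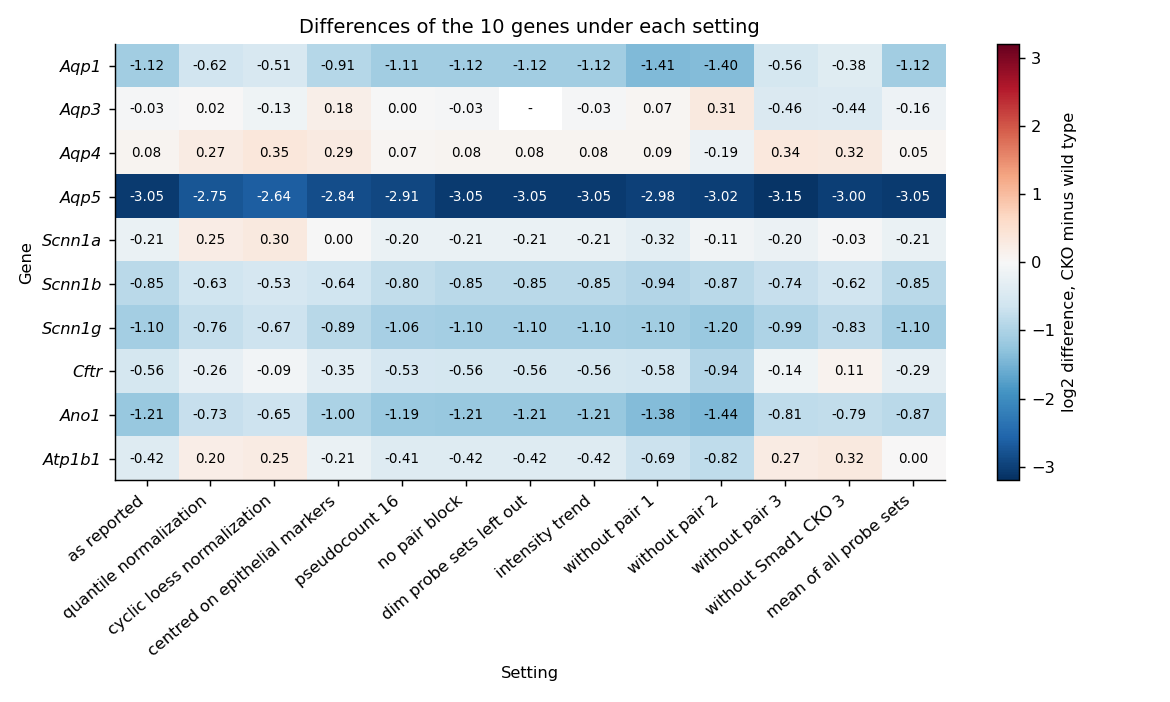
Log2 difference, Smad1 CKO minus wild type, of the 10 genes (rows) as reported and under each of 12 alternatives (columns), with the value printed in each cell and a dash where the gene was filtered out. Aqp5 stays between -3.15 and -2.64, Aqp1, Scnn1b, Scnn1g and Ano1 stay below 0 in every column, and Aqp3, Aqp4, Scnn1a, Cftr and Atp1b1 change sign in at least 1 column.

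The other genes of the pathway were taken from lists of regulators, partners and relatives, 70 measured genes in all. None passed across all probe sets in limma. At an unadjusted p under 0.05, 6 of 70 were lower (9.96% of all genes) and 5 were higher (4.96% of all genes), and the median difference was -0.0010, against -0.09 for all genes. Of the 70, 18 were lower and 18 higher in all 3 pairs (29.3% and 21% of all genes).

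Other aquaporins were mostly dim. All 8 had a mean above 0 (44.3% of all genes), with a median of 0.47 (0.37 without pair 3). At an unadjusted p under 0.05, 2 were higher (4.96% of all genes), 5 were higher in all 3 pairs (21% of all genes), and 7 of 8 were below the median intensity on at least some arrays. Aqp11, an aquaporin of intracellular membranes, was at 1.09 ± 0.83, Aqp2, the vasopressin-regulated channel of the kidney, at 0.65 ± 0.49, Aqp7, which carries glycerol, at 0.46 ± 0.31 and Aqp6 at 0.77 ± 0.95. Without pair 3 these values were 0.77, 0.56, 0.28 and 0.24. Mip and Aqp7 were among the dimmest 15013 probe sets, whose medians were 0.14, 0.02 and 0.28 in the 3 pairs. The other listed aquaporins, among them Aqp2, Aqp6 and Aqp11, were among the middle 15012, with medians of 0.03, 0.02 and 0.17. The part of these shifts in the aquaporin values was not tested.

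Partners of the sodium pump gave values in both directions, with a median of 0.10 over 10 genes. Fxyd3, a small membrane protein that modulates the pump, had intensities of 615.3, 660.1 and 541.8 in wild type lungs and 1458, 1695 and 703.0 in CKO lungs. Every CKO array lay above every wild type array, which held for 4.25% of all genes. Its pairs differed by 1.24, 1.36 and 0.38, with a mean of 0.99 ± 0.54, a 1.99-fold higher intensity (limma, adjusted p = 0.367), and 1.30 without pair 3 (adjusted p = 0.141). Atp1b3, another beta subunit, was at -0.84 ± 0.92 (-0.31 without pair 3), and Atp1a4 and Fxyd2, dim on all arrays, were at 0.53 ± 0.38 and 0.57 ± 0.47 (0.38 and 0.51 without pair 3).

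Regulators of the sodium channel had a median of -0.20 over 17 genes, and -0.06 without pair 3. Tsc22d3, a glucocorticoid-induced factor that raises channel activity, was at -0.86 ± 0.85 and the kinase gene Wnk1 at -0.83 ± 0.84. Nedd4l, the ubiquitin ligase that removes the channel from the membrane, was at -0.63 ± 0.91, and Nr3c1, the glucocorticoid receptor, at -0.49 ± 0.62. In each of these 4 genes pair 3 gave the largest difference, and without it they were at -0.38 (Tsc22d3), -0.36 (Wnk1), -0.10 (Nedd4l) and -0.14 (Nr3c1). Nr3c1 was at 0.08 after cyclic loess normalization. Outside the naming rule, and chosen after their values were seen for their role, the kinase gene Sgk1 was at -0.52, 0.54 and -1.77 and the channel-activating protease Prss8 at 0.05, 0.20 and -1.42 in the 3 pairs.

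Other chloride and bicarbonate transporters had a median of -0.23 over 24 genes and -0.02 without pair 3. Clic5, a chloride intracellular channel protein that is also a marker of alveolar type 1 cells, read 4404, 3963 and 3725 in wild type lungs and 2012, 2097 and 532.7 in CKO lungs. The groups did not overlap, and its difference was -1.62 ± 1.03 (limma, adjusted p = 0.367), or -1.02 without pair 3 (adjusted p = 0.336). The exchanger Clcn4 was at -0.89 ± 0.59, the anion exchanger Slc4a2 at -0.61 ± 0.31 and the bestrophin Best2 at 0.76 ± 0.47, or at -0.61, -0.43 and 0.70 without pair 3. Slc12a2, which loads the cell with the chloride that Cftr releases, is named outside the rule for that role after its values were seen. It was at -0.10, 0.19 and -1.56 in the 3 pairs, so it too was far lower in pair 3 alone.

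Potassium channels and sodium-proton exchange had a median of 0.05 over 11 genes. Kcnk5, a potassium channel that sets the membrane voltage for secretion, was at -0.59 ± 0.16 and Slc9a3r2, a scaffold protein of exchangers, at -0.53 ± 0.17, with the value of Slc9a3r2 at -0.05 after cyclic loess normalization. The exchangers Slc9a2 and Slc9a3 were at 0.31 ± 0.28 and 0.46 ± 0.47. Without pair 3 Kcnk5 was at -0.61, Slc9a3r2 at -0.43, Slc9a2 at 0.16 and Slc9a3 at 0.32.

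**Figure D4:**
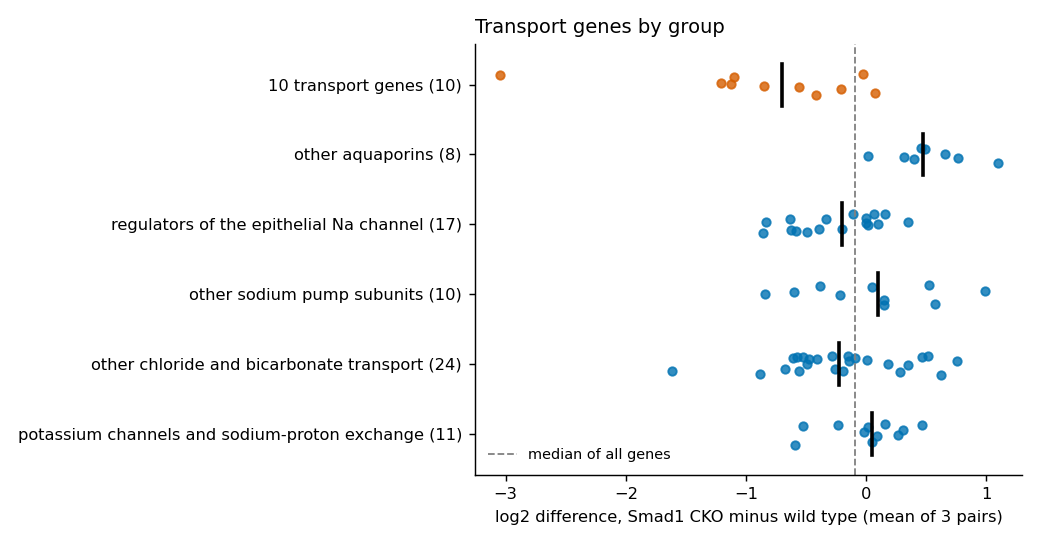
Log2 difference, Smad1 CKO minus wild type (mean of 3 pairs), of the 10 genes and of the 5 lists of related genes, 1 point per gene, with the number of genes in brackets, a black bar for the median of each group and a dashed line for the median of all genes. The 10 genes have the lowest median, at -0.70, and no listed gene lies as low as Aqp5.

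The genes whose levels followed each of the 10 most closely over the 6 arrays were found by root mean square (RMS) distance of log2 levels centred on the gene's own mean. For Aqp5 they were Hc (complement component 5), the gap junction gene Gjb6 and the protease inhibitor gene Spink5, at distances of 0.34, 0.38 and 0.41. Hc is also in the list of alveolar type 2 markers used above. These distances exceeded those found for each of the other 9 genes. For Scnn1g the nearest were Clec1a, the transcription factor gene Hhex and St6galnac4 (0.09 to 0.14), and for Scnn1b Dnah8, Ism1 and Hspa12b (0.06 to 0.09). For Scnn1a they were Frmd8, Zfp653 and Irf7.

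For Aqp1 the nearest genes were the transcription factor gene Tbx2, the basement membrane collagen gene Col4a2 and Septin8 (0.05 to 0.09), each far lower in pair 3. For Ano1 they were Exosc7, Gpam and Tmem163, and for Atp1b1 Itm2b, Muc1 and Iftap. For Cftr they were S100pbp, Tent5a and Ogt, for Aqp3 Pm20d1, Cldn2 and Nfatc1, and for Aqp4 Adamtsl2, Lrrc4b and Zfp30. Smad1 CKO 3 enters each of these distances.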

How the data were processed

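The authors deposited 1 intensity per probe set, on a linear scale to judge by the range, and RMA is named in the submitters' processing notes without software or settings. Quartiles differed between columns. Intensities were turned into log2(value + 1), and 64 control probe sets were left out. The platform annotation gave 1 symbol for 34945 probe sets, several for 932 and none for 9160. CKO and wild type arrays were compared in limma 3.58.1, run in R 4.3.3 (two-sided, pair as a fixed block, Benjamini-Hochberg over 45037 probe sets), after a check on simulated data.

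The pairs come from the design text and from array names sharing a letter. Deviations from group means correlated within pairs at 0.258, 0.604 and 0.597, and at 0.215 or lower between pairs. The closest arrays differed by an RMS of 0.227 (log2), so none was a copy. The genes and lists were chosen with earlier results of these data known. Named are the 10 genes, up to 4 of each list by smallest p, and the 3 nearest genes of each. Promoters come from RefSeq (GRCm38.p6). The number of arrays limits the precision.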

Additional observations from a re-analysis of the deposited data

Results flagged for a closer look

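The 18S ribosomal RNA control probe sets, which no comparison used, had a median intensity of 2048 on the array Smad1 CKO 3. On the 3 wild type arrays it was 117.4 to 180.4, and on the other CKO arrays 174.6 and 150.7. This signal lies above that of the controls. By representative probe set, the same array gave the lowest values of Aqp1, Cftr, Ano1, Atp1b1, Scnn1a, Scnn1b and Scnn1g. On the second Ano1 probe set Smad1 CKO 1 was lowest (238.5, against 308.6 on Smad1 CKO 3). On the fifth Atp1b1 probe set Smad1 CKO 3 was the highest array (243.1). The part of the 18S signal in those values was not tested.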

How the results depend on the processing

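Aqp1, Aqp5, Scnn1b, Scnn1g and Ano1 kept their direction in all 12 alternatives. Aqp5 became called, at -3.05, with the dim probe sets left out and with an intensity trend. With each pair, or Smad1 CKO 3 alone, left out it ran from -3.15 to -2.98, and of these it was called only without pair 3. Aqp3 turned to 0.023 after quantile normalization and to 0.18 centred on epithelial markers, and ran from -0.46 to 0.31 with arrays left out; it gave no value with dim probe sets left out. Scnn1a turned to 0.25 (quantile) and 0.30 (cyclic loess). Atp1b1 turned to 0.20 and 0.25 under these and to 0.0021 as the mean of its probe sets, and ran from -0.82 to 0.32 with arrays left out. Likewise Aqp4 ran from -0.19 to 0.34 and Cftr from -0.94 to 0.11. Without the replicate block 0 probe sets were called lower, against 1, and no call among the 10 genes changed, with Aqp5 at an adjusted p of 0.124. Called lower were also 0 after quantile normalization and with pseudocount 16, 2 after cyclic loess and 2 centred on epithelial markers, 16 with dim probe sets left out, 30 with an intensity trend (2 higher there), and 0 to 24 with arrays left out (0 to 4 higher). Centring on epithelial markers moved the median of all probe sets to 0.21. The counts among the 10 genes, lower in every pair (5 to 6) and without overlap (4 to 6), were repeated in alternatives chosen after seeing the data. The shares of all genes moved as well. Without pair 3, 34.2% of all genes were lower in every pair, against 29.3% with it. No overlap, with CKO lower, held for 22.1% without pair 3 and for 6.05% with it. Shares for the other alternatives are not given here. The cause of these shifts was not tested.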
